A study of Brassica oleracea with 12 samples.

Results

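Auxin signaling genes were described across the developing bicolor leaf of ornamental kale (Brassica oleracea var. acephala, cultivar JC007-2B). The members are the rows of the deposited expression table that carry the gene ontology term for the auxin-activated signaling pathway and no term named for anthocyanin or flavonoid. They also had to reach 1 FPKM, a level scaled to transcript length and library size, in at least 3 of the 12 libraries. The term was on 92 rows, 1 of them also carried a flavonoid or anthocyanin term, and 68 of the other 91 passed the filter, out of 45714 rows in the table and 27272 that passed the same filter. The members are 25 auxin response factors (ARF), 33 Aux/IAA proteins, 6 PIN efflux carriers and 4 others.

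Messenger RNA was sequenced in 12 libraries, with 3 in each of 4 groups of this 1 cultivar, and no group was treated or genetically altered. S1 is the whole leaf, sampled without veins, at the stage when it is red. S2 is the whole leaf without veins at the next stage, when red shows at the center and the margin is green. S3_S is the green margin and S3_C the red center of the leaf at the third stage. Whether libraries of 1 group stand for separate plants is not stated in the labels, and p-values below then measure only the spread between these samples, which may be technical. Neither positions nor a genome build come with the table, and members are identified by name.

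Auxin is perceived by F-box receptors of the TIR1/AFB family, which bind Aux/IAA proteins in its presence and mark them for degradation. Aux/IAA proteins otherwise hold ARF transcription factors in check together with TOPLESS-type co-repressors, and many Aux/IAA genes are themselves switched on by auxin. PIN proteins carry auxin out of cells, and auxin maxima along the leaf margin are known in Arabidopsis to shape the margin and the veins.

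Only 13 members were linked to an Arabidopsis gene in the table, among them Bo5g062810, annotated as auxin response factor 6. Of these, 12 carry a name of their own, which are ARF4, ARF8, ATAUX2-11, IAA10, IAA11, IAA14, IAA30, SHY2, PIN4, VIK, AAR3 and CPL2. Most other members are known by their product description alone, so they can be placed in a family but not matched to 1 Arabidopsis gene. One member, Bo9g072940;Bo9g072930, joins a pair of annotated genes. The names of 5 members, Bo3g108130, Bo5g027930, Bo5g093110, Bo6g121520 and Bo8g002800, also label another, low row of the table, so their reads may be split. Close copies are common in Brassica genomes, and values of near-identical family members are uncertain to that extent.

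The filter left out 23 rows with the term, namely 3 ARF, 13 Aux/IAA, 5 PIN (PIN6 among them) and 2 other rows (FKD1 and VH1). None of these was listed at 0 in all 12 libraries, 4 reached 1 FPKM in at least 1 library, and the highest value was 4.62 FPKM for FKD1 in S1 replicate 3. Just inside the filter were IAA30 (1.3 FPKM in S2 replicate 1, 1.20 in S3_S replicate 1 and 1.09 in S3_S replicate 3) and the PIN carrier Bo6g116850. Just outside it were Bo1g037360, at 1.64 FPKM in S1 replicate 3 and 1.26 in S3_S replicate 3, and FKD1. No member passed through libraries of 1 group alone, and 42 members were at 1 FPKM or more in all 12 libraries.

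The libraries did not separate cleanly by group. Over all tested rows, FPKM values on the log2 scale correlated at 0.749 to 0.935 within groups and at 0.645 to 0.952 between groups. S1 replicate 1 was closest to S2 replicate 2 (0.941, against 0.749 and 0.761 with the other S1 libraries), and S3_S replicate 3 was closest to S1 replicate 3 (0.912). The FPKM of a library added up to 426981 at the lowest and 470320 at the highest, and without read counts the depth is unknown. Members were tested in the limma fit of log2(FPKM + 1) over all 27272 rows, and a member was called where the adjusted p was under 0.05. Fold changes below are differences on that log2 scale, on which those of low genes come out too small. No member was called in any of the 6 comparisons between groups or in the test over all 4 groups, in which the share called among all tested rows was 0.00733%. In that test of all groups 8 members had an unadjusted p under 0.05, against 8.15% of all tested rows.

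A few genes supplied most of the auxin signaling transcripts. Among the ARF genes, transcription factors that bind auxin response elements, the 4 most abundant made up 53.3% of the summed FPKM averaged over the 12 libraries. Bo3g108130 alone gave 22.0%. Bo3g108130 was at 78.4, 59.0 and 55.1 FPKM in S3_S, and at 62.8, 45.0 and 73.4 FPKM in S3_C. Its group means lay close together, at 62.3 ± 13.0 FPKM in S1, 75.5 ± 11.7 in S2, 64.2 ± 12.5 in S3_S and 60.4 ± 14.3 in S3_C (SD, n = 3 each). The next most abundant ARF genes, by their mean over 12 libraries, were Bo9g014770 at 44.6, Bo2g161810 at 27.4 and Bo1g090350 at 21.5 FPKM, whereas the median ARF gene averaged 8.72 FPKM.

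The Aux/IAA genes were more unequal still in level. The 4 most abundant made up 64.2% of the family's summed FPKM, and Bo5g093110 alone 31.5%. Bo5g093110 was at 165, 75.0 and 93.1 FPKM in S1, at 215, 193 and 191 in S2, at 276, 357 and 139 in S3_S and at 218, 109 and 331 in S3_C. All S2 libraries lay above all S1 libraries for this gene, while the margin and center libraries spanned the same range. Bo3g097860 averaged 86.6 FPKM over the 12 libraries, Bo9g018860 63.8 and Bo1g151890 53.3, against 6.36 FPKM for the median Aux/IAA gene.

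The summed level of each family was compared between groups as a description, since it follows the few abundant genes. Aux/IAA genes summed to 501 ± 3.16 FPKM in S1, 613 ± 172 in S2, 849 ± 82.7 in S3_S and 536 ± 243 in S3_C (SD, n = 3 each). The margin libraries ran between 759 and 922 FPKM and the center libraries between 293 and 779, so that they overlapped. ARF genes summed to 287 ± 8.85 FPKM in S1, 301 ± 43.8 in S2, 352 ± 50.4 in S3_S and 253 ± 78.1 in S3_C. The 3 S1 libraries were almost equal in both family sums, although single genes differed widely between them. PIN carriers summed to 48.4 ± 11.5 FPKM in S1, 40.3 ± 28.3 in S2, 65.6 ± 19.8 in S3_S and 28.5 ± 18.7 in S3_C. The 4 other members summed to between 37.3 and 62.4 FPKM in every library.

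**Figure D1:**
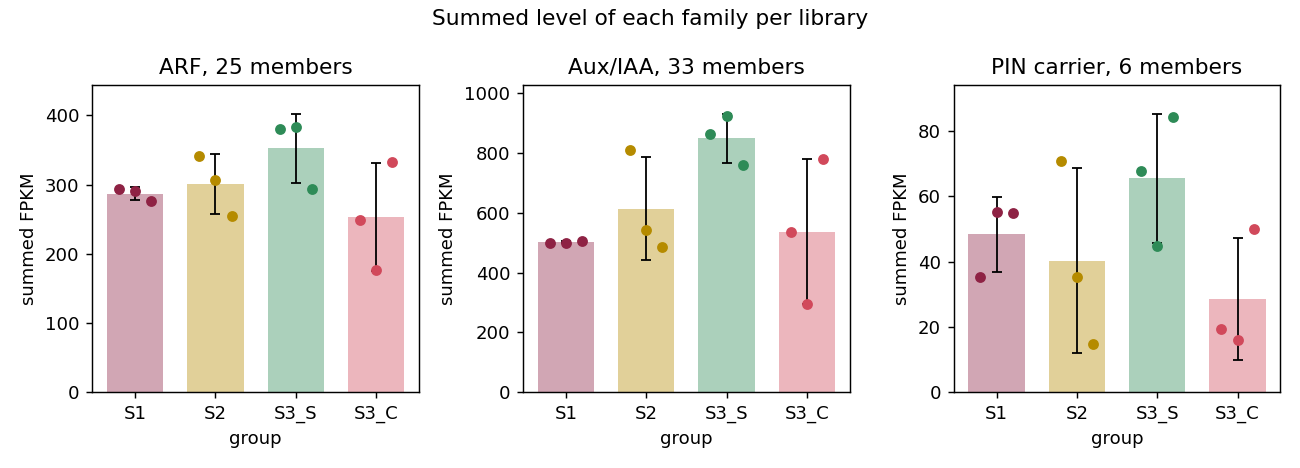
Summed FPKM of the ARF, Aux/IAA and PIN genes (y axes, linear, from 0) in each library, by group (x axes). Points are libraries, colored bars the mean and error bars the SD of 3 libraries. The 3 margin libraries (S3_S) reach 759 to 922 FPKM for Aux/IAA genes, against 293 to 779 FPKM for the 3 center libraries (S3_C).

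The green margin was set against the red center of the same stage, the comparison that separates the leaf's colors. Most auxin signaling genes had a higher mean in the margin. The log2 fold change was above 0 for 62 of 68 members, against 65.5% of all tested rows, and its median was 0.53 over the members and 0.18 over all tested rows. All 3 margin libraries lay above all 3 center libraries in 19 members (27.9%), against 11.9% of all tested rows, and below them in 1 member, against 4.85%. None of these differences passed the adjusted threshold. The smallest adjusted p of a member was 0.476 in limma, with 0% of all tested rows called in either direction. At an unadjusted p under 0.05, 17 members (25%) were higher, against 7.47% of all tested rows, and 0 were lower, against 2.89%. In bulk tissue, a difference in RNA per cell and a difference in the share of cells that express a gene cannot be told apart.

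**Figure D2:**
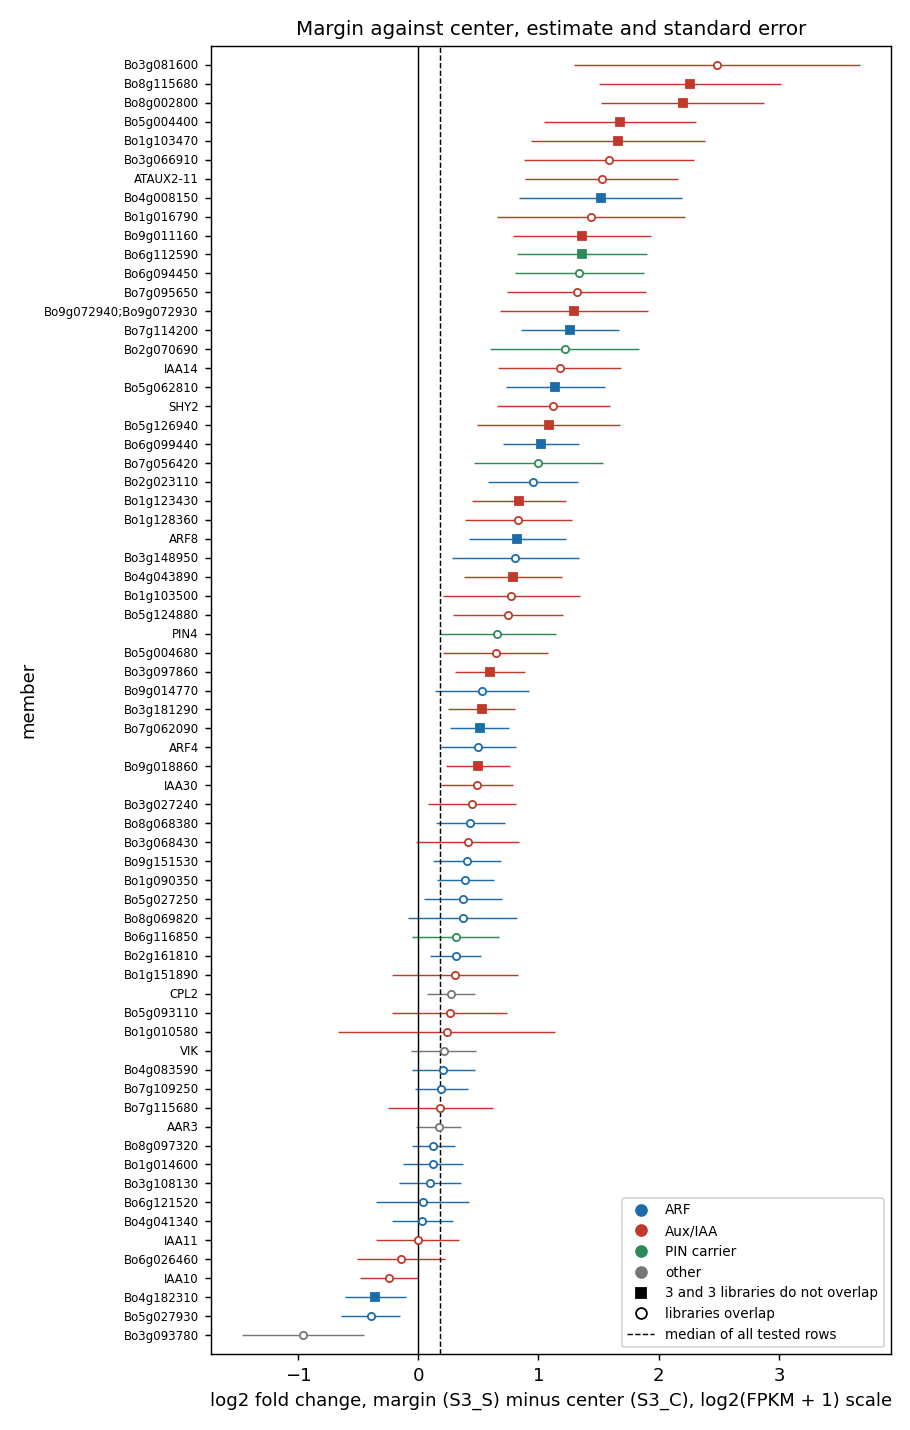
Log2 fold change of every member, margin (S3_S) minus center (S3_C), with its standard error from limma on the log2(FPKM + 1) scale (x axis), sorted by size (y axis). Colors give the family, filled squares mark members whose 3 and 3 libraries do not overlap, and the dashed line is the median of all tested rows. Of 68 members 62 lie to the right of 0, and 20 have groups that do not overlap.

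Among the ARF genes 23 of 25 had a fold change above 0, with a median of 0.39 and a range of -0.40 to 1.52. The margin libraries lay above the center libraries in 6 ARF genes and below them in 1. Bo5g062810, annotated as auxin response factor 6, was at 22.4, 32.1 and 19.8 FPKM in S3_S, and at 10.3, 5.87 and 18.6 FPKM in S3_C. Its lowest margin library stood just above its highest center library, and the fold change was 1.14 (SE 0.41, limma adjusted p = 0.476). ARF8, which acts with ARF6 in Arabidopsis flower maturation, was at 11.1, 12.9 and 9.79 FPKM in S3_S, and at 5.30, 4.12 and 9.05 FPKM in S3_C (fold change 0.83, SE 0.40, limma adjusted p = 0.477). The gap between its groups was also narrow and hung on S3_C replicate 3.

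The ARF gene Bo7g114200 had margin libraries close to each other. It was at 14.1, 15.7 and 15.4 FPKM in S3_S, and at 6.36, 3.01 and 9.15 FPKM in S3_C, a fold change of 1.26 (SE 0.41). Every margin library was above all 9 other libraries for this gene, whose highest value elsewhere was 13.2 FPKM in S2 replicate 1. This pattern was shown by 2 of 68 members, against 0.862% of all tested rows, and the other was the Aux/IAA gene Bo8g002800. Bo6g099440 was at 14.7, 18.7 and 15.6 FPKM in S3_S, and at 7.08, 4.72 and 12.3 FPKM in S3_C (fold change 1.02, SE 0.31). The low ARF gene Bo4g008150 had the family's largest fold change, 1.52, with 1.56, 4.94 and 2.34 FPKM in S3_S, and 0.101, 0 and 0.971 FPKM in S3_C. Bo7g114200, Bo6g099440 and Bo4g008150 are named after their values were seen.

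The ARF genes that were not higher in the margin were few and low. Bo4g182310 was at 1.94, 1.67 and 1.77 FPKM in S3_S, and at 3.36, 2.45 and 2.03 FPKM in S3_C, with a fold change of -0.36. It was the single member whose margin libraries all lay below its center libraries, and it is named after its values were seen. Bo5g027930, likewise named, had a fold change of -0.40, at 3.76, 1.70 and 2.15 FPKM in S3_S and 2.99, 3.77 and 3.84 FPKM in S3_C. The abundant ARF genes overlapped between the groups. Bo9g014770 had a fold change of 0.53 (SE 0.39), Bo1g090350 of 0.39 (SE 0.24), Bo2g161810 of 0.31 (SE 0.21) and Bo3g108130 of 0.10 (SE 0.26), which turned to -0.13 with median-of-ratios scaling.

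The Aux/IAA genes held the largest single differences between margin and center. The fold change was above 0 in 30 of 33, with a median of 0.79, and 12 had margin libraries all above the center libraries, while 0 had them all below. Bo8g115680 was at 72.7, 81.0 and 93.6 FPKM in S3_S, and at 21.0, 3.85 and 47.7 FPKM in S3_C. The margin libraries were close to each other and the center libraries far apart, and the ratio of means was 3.41. Its fold change was 2.26 (SE 0.76, limma adjusted p = 0.476). Leaving out S3_C replicate 2, the lowest center library, gave a fold change of 1.34 for Bo8g115680, and leaving out S3_C replicate 3 gave 3.01.

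Bo8g002800 had a ratio of means of 4.62 between margin and center. It was at 16.9, 29.1 and 26.5 FPKM in S3_S, and at 2.57, 2.78 and 10.3 FPKM in S3_C (fold change 2.20, SE 0.68, limma adjusted p = 0.476). Its 9 libraries outside the margin reached at most 15.2 FPKM, in S2 replicate 1. Bo5g004400 was at 11.6, 7.95 and 19.1 FPKM in S3_S, and at 3.34, 0.902 and 7.36 FPKM in S3_C (fold change 1.68, SE 0.63). Bo1g103470 was at 10.2, 17.5 and 17.3 FPKM in S3_S, and at 3.94, 1.24 and 9.76 FPKM in S3_C (fold change 1.66, SE 0.73). In both genes the groups were separated by less than 1 FPKM, with S3_C replicate 3 highest and S3_C replicate 2 lowest in the center.

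The more abundant Aux/IAA genes differed less. Bo3g097860 was at 96.2, 95.4 and 121 FPKM in S3_S, and at 66.7, 58.2 and 81.3 FPKM in S3_C (fold change 0.60, SE 0.29). Bo9g018860 was at 82.5, 73.4 and 74.2 FPKM in S3_S, and at 52.7, 47.8 and 62.4 FPKM in S3_C (fold change 0.50, SE 0.26). Neither pair of groups overlapped, and both differences missed the adjusted threshold (limma adjusted p = 0.477 and 0.486). Bo5g093110 (0.26, SE 0.48) and Bo1g151890 (0.31, SE 0.52) overlapped between margin and center, and both turned below 0 without S3_C replicate 2.

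Several other Aux/IAA genes had differences that varied widely between libraries. Bo3g081600 had the largest fold change of all members, 2.49 (SE 1.19), with 14.1, 49.9 and 16.5 FPKM in S3_S and 3.34, 0.0728 and 15.5 FPKM in S3_C, and its groups overlapped. Bo3g066910 was at 39.9, 3.66 and 7.37 FPKM in S3_S, and at 5.37, 0.946 and 3.76 FPKM in S3_C, so that S3_S replicate 1 carried most of its fold change of 1.59 (SE 0.71). SHY2, the IAA3 gene that restrains the root meristem in Arabidopsis, was at 1.51, 1.14 and 5.84 FPKM in S3_S, and at 0.320, 0 and 1.69 FPKM in S3_C. IAA14, which acts in lateral root initiation in Arabidopsis, was at 5.62, 6.76 and 1.91 FPKM in S3_S, and at 1.54, 0.506 and 2.38 FPKM in S3_C. SHY2, IAA14 and Bo3g081600 are named after their values were seen. Only IAA10 (-0.24), Bo6g026460 (-0.14) and IAA11 (-0.0043) had fold changes below 0, and those of Bo6g026460 and IAA11 changed sign when single libraries were left out.

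**Figure D3:**
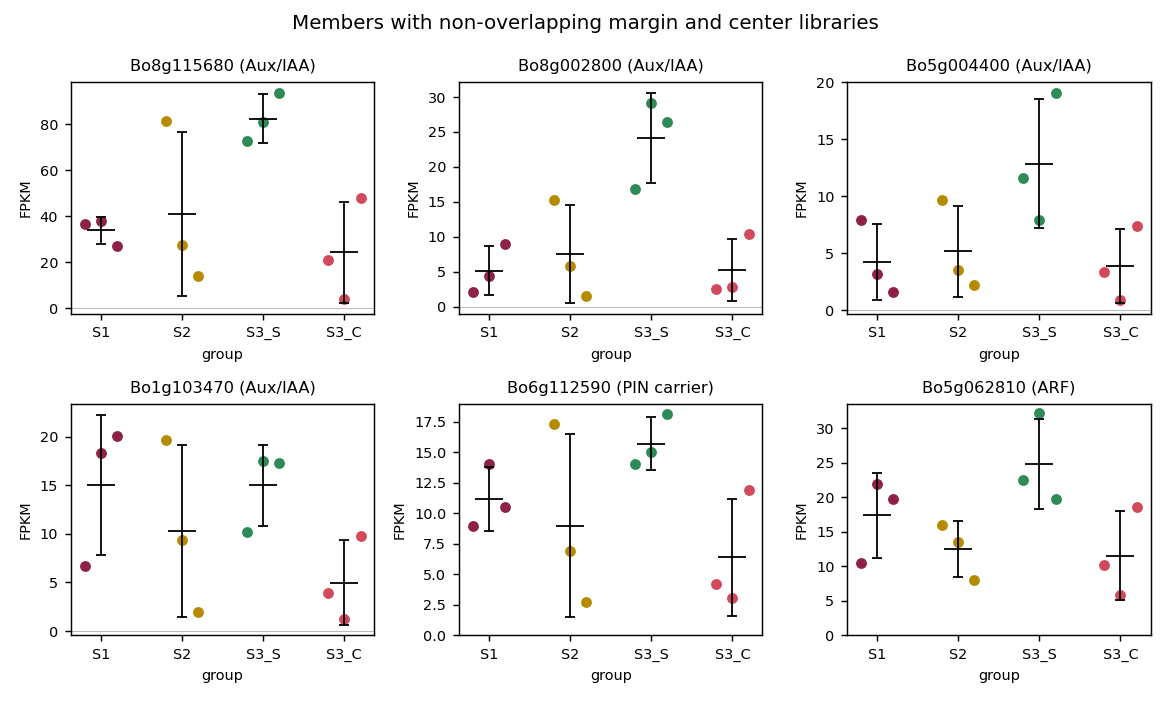
FPKM (y axes, linear) in each library by group (x axes) for members named in the comparison of margin with center. Points are libraries, and bars are the mean and SD of 3 libraries. For Bo8g115680 the margin libraries lie at 72.7 to 93.6 FPKM and the center libraries at 3.85 to 47.7 FPKM, and S2 replicate 1 reaches the margin's level.

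All 6 PIN carriers, which export auxin from cells, had a fold change above 0 in the margin, with a median of 1.11. Bo6g112590 was at 14.0, 15.0 and 18.1 FPKM in S3_S, and at 4.20, 3.06 and 11.9 FPKM in S3_C (fold change 1.36, SE 0.54, limma adjusted p = 0.476), and it was the single carrier whose groups did not overlap. Bo6g094450, the most abundant carrier, was at 36.1, 20.6 and 35.0 FPKM in S3_S, and at 10.0, 5.86 and 22.5 FPKM in S3_C (1.34, SE 0.54). PIN4 was at 9.82, 4.88 and 18.3 FPKM in S3_S, and at 3.21, 6.55 and 8.81 FPKM in S3_C (0.66, SE 0.48). For Bo6g094450 and PIN4, S3_S replicate 2 fell within the range of the center. The remaining carriers Bo2g070690, Bo7g056420 and Bo6g116850 averaged 0.687 to 4.61 FPKM in the margin and 0.329 to 1.58 FPKM in the center.

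The 4 other members overlapped between margin and center. VIK, a kinase that interacts with the receptor VH1 in Arabidopsis leaf veins, averaged 37.8 ± 8.60 FPKM in S3_S and 33.3 ± 11.8 FPKM in S3_C (SD, n = 3 each). AAR3, linked to the auxin response of Arabidopsis roots, averaged 8.86 ± 1.77 FPKM in S3_S and 7.68 ± 0.462 FPKM in S3_C. CPL2, a phosphatase of the RNA polymerase II tail, averaged 4.92 ± 0.562 FPKM in S3_S and 3.93 ± 0.778 FPKM in S3_C. Bo3g093780, which has no description, had the lowest fold change of all members, -0.96 (SE 0.50), at 1.92, 3.94 and 1.82 FPKM in S3_S and 3.55, 13.9 and 3.39 FPKM in S3_C. Its high center mean came from S3_C replicate 2, and it is named after its values were seen.

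The contrast between margin and center leaned on single libraries, above all on S3_C replicate 2. S3_C replicate 2 was the lowest of the 12 libraries in 32 members, against 26.5% of all tested rows. Without it, 55 members had a fold change above 0, the median was 0.43 against 0.13 for all tested rows, and 3 members (4.41%) had an unadjusted p under 0.05, against 2.56% of all tested rows. With all libraries these shares were 25% of members and 10.4% of all tested rows. Without S3_S replicate 3, whose values resembled S1, 61 members were above 0, 11 (16.2%) had an unadjusted p under 0.05, against 6.27% of all tested rows, and the median was 0.55 against 0.16. The number at an unadjusted p under 0.05 was 9 (13.2%) without S3_C replicate 1, against 7.54% of all tested rows, and 30 (44.1%) without S3_C replicate 3, against 20.2%. Over all libraries left out in turn, 56 members kept the sign of their fold change, 52 above 0 and 4 below, and 12 changed it.

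The median over all tested rows also lay above 0, and it moved with the scaling. Scaling by the median of ratios moved the median fold change of all tested rows to 0.01, and that of the members to 0.37, with 55 of 68 above 0. By family, 18 of 25 ARF genes (median 0.19), 30 of 33 Aux/IAA genes (0.67) and 6 of 6 PIN carriers (1.01) were then above 0, and 1 of the 4 other members, whose median turned to -0.03. Within libraries of the same replicate number, 60, 58 and 44 members were higher in the margin for numbers 1, 2 and 3, against 67.5%, 63.4% and 51.1% of all tested rows. In 37 members the margin was higher within all 3 numbers, against 29.8% of all tested rows, and in 3 it was lower within all 3, against 11.7%.

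Marker genes of cell types were looked up by Arabidopsis identifier, which only 13 of the 68 members carry. A marker that was not found may therefore still be in the table. All 4 markers of dividing cells were found, and their summed FPKM ran from 19 to 30.0 in S3_S and from 19.5 to 28.2 in S3_C. Most of each sum was the cyclin gene CYC1, at 19.2, 17.7 and 21.3 FPKM in S3_S and 26.1, 27.8 and 18.7 FPKM in S3_C. Of the others, PCNA1 was at 5.37 FPKM and the cell cycle kinase gene CDC2B at 3.04 FPKM in S3_S replicate 3, and both were below 1 FPKM in the other margin and center libraries, as was CDKB1 in all of them. Only XCP1, a xylem protease, was found of 5 vascular markers, at 0.903, 0.484 and 7.08 FPKM in S3_S and 0.360, 0.396 and 0.454 FPKM in S3_C. Of 4 epidermal markers CUT1 alone was found, at 0.367 to 0.587 FPKM in S3_S and 0.169 to 0.877 FPKM in S3_C. The 2 mesophyll chloroplast markers found of 4 summed to between 1927 and 3190 FPKM in S3_S and between 2056 and 6025 FPKM in S3_C, so that defining chloroplast markers of leaf tissue were abundant. None of these markers was at 0 in any margin or center library, and the part of cell type make-up in the differences was not tested.

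Between the red leaf and the next stage, S2 against S1, the members showed no common direction with all libraries, with or without scaling. The fold change was above 0 in 31 members, against 42.9% of all tested rows, and below it in 37, against 57.1%. Its median was -0.05 over the members and -0.09 over all tested rows. The direction hung on single S2 libraries. Without S2 replicate 3, 46 members were above 0 (median 0.15, against -0.03 for all tested rows). Without S2 replicate 1, 22 were (median -0.29, against -0.15). Over all libraries left out in turn, 39 members kept the sign of this fold change and 29 changed it. At an unadjusted p under 0.05, 3 members were higher in S2 (3.7% of all tested rows) and 4 lower (8.39%). The groups did not overlap in 4 members higher in S2, against 4.71% of all tested rows, and in 4 lower, against 6.7%. None was called, against 0% of all tested rows called higher and 0.00733% called lower, and the smallest adjusted p of a member in limma was 0.403.

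Bo1g151890, an Aux/IAA gene, had the largest fold change above 0 among the members in this step. It was at 49.5, 60.4 and 105 FPKM in S2, and at 34.5, 15.0 and 13.8 FPKM in S1, a fold change of 1.76 (SE 0.52, limma adjusted p = 0.403). Bo6g026460, also an Aux/IAA gene, was at 6.96, 5.14 and 4.29 FPKM in S2, and at 3.52, 1.17 and 1.64 FPKM in S1 (1.11, SE 0.37). In both genes, as in Bo5g093110 (0.92, SE 0.48), S1 replicate 1 was the S1 library closest to S2. CPL2 was lower, at 4.22, 3.77 and 3.62 FPKM in S2 and 4.30, 5.41 and 6.03 FPKM in S1 (-0.35, SE 0.20). All 6 PIN carriers had a fold change below 0, with a median of -0.46, and no carrier had groups that did not overlap.

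The S1 libraries were not alike, and this touched every comparison with S1. S1 replicate 1 lay above both other S1 libraries in 24 members and below both in 38, and between them in 6. It also differed in other genes, with 4394 FPKM of the summed chloroplast markers against 523 and 519 FPKM in S1 replicates 2 and 3. Of the markers of dividing cells, PCNA1 was at 0.164 FPKM in it against 9.10 and 12.2 FPKM. CDC2B (0.164 against 6.52 and 11.1 FPKM) and CDKB1 (0.154 against 1.21 and 1.46 FPKM) were also lower in it. CYC1, the most abundant of these markers, went the other way, at 22.8 against 14.5 and 19.5 FPKM. Without S1 replicate 1, 8 members were called in S2 against S1, 3 higher (4.41%, against 4.69% of all tested rows) and 5 lower (7.35%, against 10.9%). The higher ones were Bo1g151890 (2.17), IAA11 (1.39) and Bo6g026460 (1.41). The lower ones were ARF4 (-0.98), an Arabidopsis regulator of the lower leaf surface, the ARF gene Bo8g069820 (-1.54), the Aux/IAA genes Bo1g016790 (-2.69) and Bo9g011160 (-1.74), and the PIN carrier Bo6g116850 (-1.04). Their limma adjusted p values lay between 0.0127 and 0.0499.

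The values of these genes show where the 3 S1 libraries part. Bo1g016790 was at 6.58, 2.57 and 0.315 FPKM in S2, and at 2.73, 19.5 and 20.9 FPKM in S1. IAA11 was at 21.7, 13.0 and 15.7 FPKM in S2, and at 14.5, 5.59 and 5.75 FPKM in S1. ARF4 was at 2.85, 2.13 and 2.64 FPKM in S2, and at 2.90, 6.39 and 5.59 FPKM in S1. In each, S1 replicate 1 sat within the range of S2 or next to it, and the other S1 libraries sat apart. This follows from the choice of genes, which were those called once S1 replicate 1 was left out, and adds no support. ARF4, Bo8g069820, Bo1g016790, Bo9g011160 and Bo6g116850 are named after their values were seen.

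**Figure D4:**
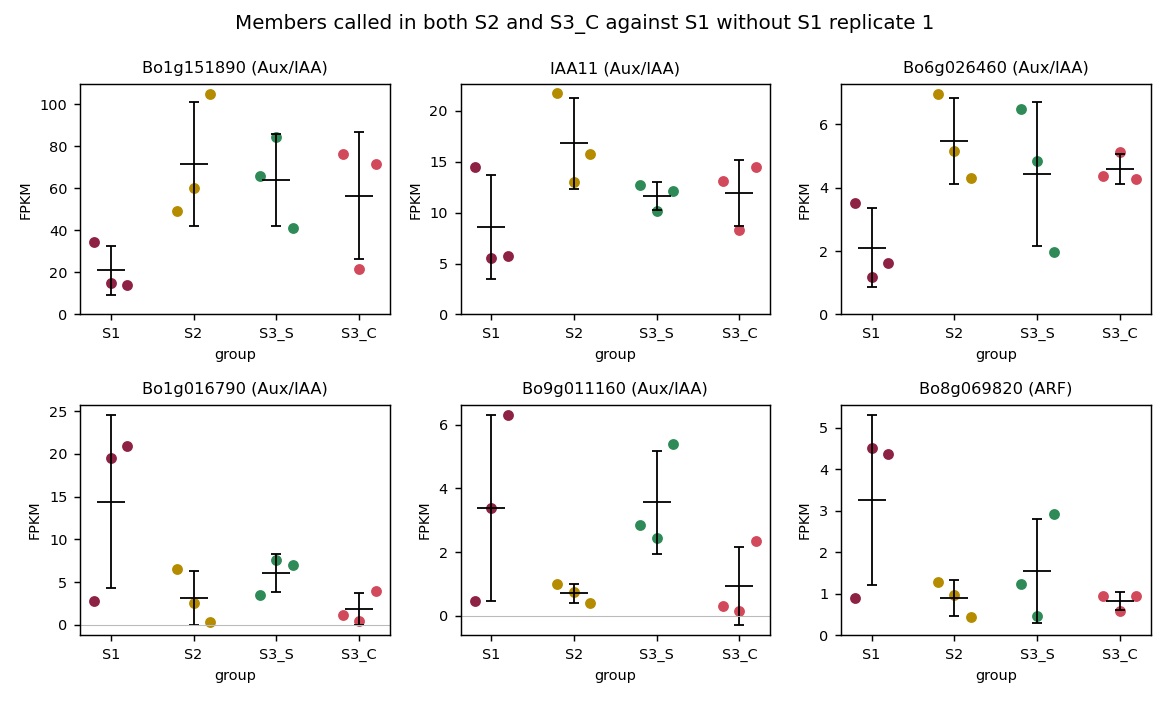
FPKM (y axes, linear) in each library by group (x axes) for 6 of the 8 members that were called in both S2 and S3_C against S1 once S1 replicate 1 was left out. Points are libraries in the order of replicate number, and bars are the mean and SD of 3 libraries. For Bo1g016790 S1 replicate 1 is at 2.73 FPKM, among the S2 libraries, and the other S1 libraries are at 19.5 and 20.9 FPKM. The place of S1 replicate 1 follows from how these members were chosen.

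The red center of the third stage was also set against S1. In S3_C against S1 the fold change was above 0 in 24 members, against 37.4% of all tested rows, and below it in 44, against 62.6%. Its median was -0.22 over the members and -0.18 over all tested rows. At an unadjusted p under 0.05, 2 members were higher in S3_C (6.12% of all tested rows) and 9 lower (15.8%), and none was called, against 0% called higher and 0.00733% called lower. The groups did not overlap in 1 member higher in S3_C, against 5.28% of all tested rows, and in 7 lower, against 10.1%. ARF8 was at 5.30, 4.12 and 9.05 FPKM in S3_C, and at 9.20, 18.9 and 14.9 FPKM in S1 (-1.10, SE 0.40, limma adjusted p = 0.213). The Aux/IAA gene Bo3g181290 was at 2.90, 2.44 and 2.96 FPKM in S3_C, and at 4.73, 7.16 and 5.83 FPKM in S1 (-0.86, SE 0.28). PIN4 was at 3.21, 6.55 and 8.81 FPKM in S3_C, and at 10.1, 9.01 and 11.7 FPKM in S1 (-0.73, SE 0.48), and all 6 PIN carriers had a fold change below 0. With median-of-ratios scaling 31 members were above 0 and 37 below (median -0.05). Without S3_C replicate 2, 34 were above 0 (median -0.008, against -0.13 for all tested rows). Without S3_C replicate 3, 18 were (median -0.52, against -0.28).

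Leaving out S1 replicate 1 again changed the calls. In S3_C against S1, 12 members were then called, 3 higher (6.41% of all tested rows) and 9 lower (16.6%). The higher ones were Bo1g151890 (1.71), IAA11 (0.92) and Bo6g026460 (1.22). The lower ones were ARF8, ARF4, Bo4g008150, Bo8g069820, Bo9g072940;Bo9g072930 (-2.51), Bo1g016790 (-3.09), Bo3g181290, Bo9g011160 and Bo6g116850. This comparison and that of S2 with S1 share the S1 libraries.

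The green margin was set against S1 in the same way. In S3_S against S1 the fold change was above 0 in 48 members, against 48.4% of all tested rows, and below it in 20, with a median of 0.34 against -0.02. At an unadjusted p under 0.05, 11 members were higher (2.9% of all tested rows) and 0 lower (2.79%). The groups did not overlap in 15 members higher in S3_S, against 5.74% of all tested rows, and in 0 lower, against 3.81%. None was called, against 0% called higher and 0.00733% called lower, and the smallest adjusted p in limma was 0.824. Aux/IAA genes made up most of these, with 27 of 33 above 0, a median of 0.71 and 11 of the 15 without overlap. ARF genes were above 0 in 16 of 25 (median 0.18), and PIN carriers in 3 of 6.

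Bo8g002800 had the largest of these fold changes, at 16.9, 29.1 and 26.5 FPKM in S3_S and 2.13, 4.43 and 8.98 FPKM in S1 (2.15, SE 0.68). Bo3g066910 was at 39.9, 3.66 and 7.37 FPKM in S3_S, and at 1.42, 1.74 and 2.68 FPKM in S1 (2.01, SE 0.71). Bo1g151890 was at 65.9, 84.7 and 41.2 FPKM in S3_S, and at 34.5, 15.0 and 13.8 FPKM in S1 (1.62, SE 0.52). All margin libraries stood above all S1 libraries in these genes, by a factor that differed widely between libraries for Bo3g066910. Without S1 replicate 1 no member was called (0.363% of all tested rows were called higher and 1.03% lower). Without both S1 replicate 1 and S3_S replicate 3, 7 members were called. The higher ones were Bo8g068380, Bo5g093110, Bo1g151890, Bo6g026460, IAA14 and Bo1g123430 (6 members, against 3.35% of all tested rows), and Bo8g069820 was lower (7.94%). Fewer members pointed upward in that fit, with 41 above 0 and 27 below, while the median was 0.32. By family, 21 of 33 Aux/IAA genes (median 0.76), 15 of 25 ARF genes (0.31) and 2 of 6 PIN carriers were then above 0.

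The stage S2 was set against each part of the S3 leaf. In the margin, S3_S against S2, the fold change was above 0 in 55 members, against 60.1% of all tested rows, with a median of 0.36 against 0.10. The groups did not overlap in 12 members higher in S3_S, against 11.2% of all tested rows, and in 1 lower, against 4.63%. Of the members 9 were higher at an unadjusted p under 0.05 (2.04% of all tested rows), none was lower (1.25%) and none was called, against 0% in both directions. Among members without overlap whose margin mean was 5 FPKM or more, the 3 largest fold changes were those of Bo3g066910 (2.12, SE 0.71), Bo8g002800 (1.91, SE 0.68) and Bo5g062810 (0.95, SE 0.41). Bo8g002800 was at 16.9, 29.1 and 26.5 FPKM in S3_S, and at 15.2, 5.86 and 1.50 FPKM in S2, so that the margin and S2 replicate 1 were close. IAA11 was the one lower, at 12.7, 10.1 and 12.1 FPKM in S3_S and 21.7, 13.0 and 15.7 FPKM in S2 (-0.47, SE 0.34). The number of members at an unadjusted p under 0.05 leaned on single S2 libraries. Without S2 replicate 3 it was 2 (2.94%), against 2.59% of all tested rows, while 50 members were above 0 (median 0.15). It was 4 (5.88%, against 1.94%) without S2 replicate 2, and 19 (27.9%, against 4.61%) without S2 replicate 1.

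In the center, S3_C against S2, the fold change was above 0 in 13 members, against 36.8% of all tested rows, and below it in 55, against 63.1%, with a median of -0.23 against -0.09. At an unadjusted p under 0.05, 0 members were higher (0.642% of all tested rows) and 0 lower (0.587%), and the groups did not overlap in 0 members higher (1.5%) and in 1 lower (2.55%). None was called, against 0% of all tested rows in both directions, and the smallest adjusted p in limma was 1. The one without overlap was the ARF gene Bo8g097320, at 8.22, 7.30 and 6.70 FPKM in S3_C and 9.31, 8.40 and 9.13 FPKM in S2 (-0.25, SE 0.18). The S2 libraries spread widely in many members, such as Bo8g115680 at 81.6, 27.5 and 14.0 FPKM and Bo6g112590 at 17.3, 6.91 and 2.74 FPKM. S2 replicate 1 was the highest S2 library in both, and S2 replicate 3 the lowest. The direction of S3_C against S2 hung on single libraries. Without S2 replicate 1, 35 members had a fold change above 0 (median 0.009), and without S3_C replicate 2, 29 did (median -0.017). Leaving out any other library of S2 or S3_C gave 6 to 18. Over all libraries left out in turn, 29 members kept the sign of this fold change and 39 changed it.

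Across the 4 groups, the mean was highest in S3_S in 42 of 68 members, against 26.6% of all tested rows. It was highest in S1 in 14 (38.9% of all tested rows), in S2 in 9 (16.7%) and in S3_C in 3 (17.8%). The mean was lowest in S3_C in 37 members, against 42.2% of all tested rows, in S1 in 21 (25.2%), in S2 in 7 (16.3%) and in S3_S in 3 (16.2%). After the mean of each member was taken away, the most alike libraries over the members included S1 replicates 2 and 3 (r = 0.857) and S2 replicate 3 with S3_C replicate 1 (r = 0.753), a description over 68 genes that are not independent.

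**Figure D5:**
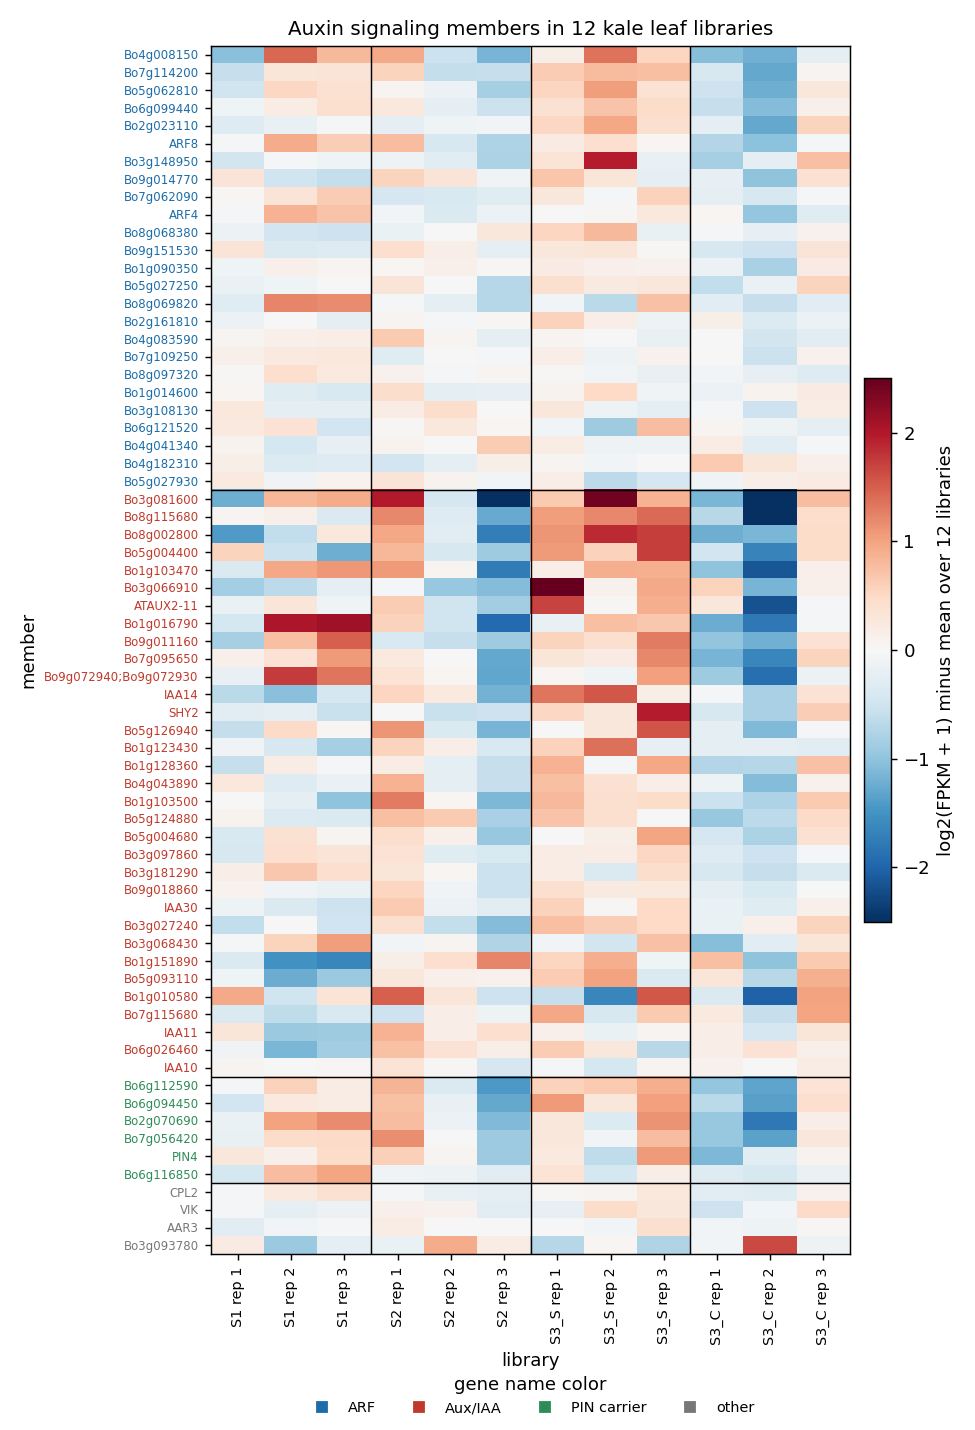
Level of each member (rows, sorted by family) in each library (columns, by group) as log2(FPKM + 1) minus the member's mean over 12 libraries (color scale, capped at its ends). S3_C replicate 2 is the lowest library in 32 members, and S3_S has the highest group mean in 42.

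Other genes of the auxin pathway were looked up by Arabidopsis identifier (SAUR genes by description), and 7 outside the members were tested. Only 13 of the 68 members carry such an identifier, so pathway genes that were not matched may still be in the table. In S3_S against S3_C, 5 of the 7 had a fold change above 0 and 2 below, with a median of 0.16, and 0 were called. TMK1, a cell-surface kinase of auxin signaling, was at 20.9, 21.0 and 19.9 FPKM in S3_S, and at 0.164, 5.77 and 0.653 FPKM in S3_C (3.2, SE 0.99, limma adjusted p = 0.476). It was also near 0 in S2 replicate 3, at 0.082 FPKM, while the other S2 libraries were at 21.5 and 17.4 FPKM. Bo8g097420, of the auxin-induced SAUR family, was at 0, 1.21 and 0 FPKM in S3_S, and at 2.77, 10.5 and 1.66 FPKM in S3_C (-1.91, SE 0.73). The influx carrier LAX1 had a fold change of 1.09 (SE 0.63), whereas the receptor AFB5 (-0.11, SE 0.25) and the co-repressor TPR1 (0.16, SE 0.19) differed by less than their standard errors. GH3.9, of the family that conjugates auxin to amino acids, had 0.43 (SE 0.41) and the hydrolase gene ILL6 0.13 (SE 0.42). Of 11 auxin biosynthesis genes looked up, 1 row was matched and 0 were tested, so the levels of these genes were not described.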

How the data were processed

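The authors deposited 1 table with FPKM for each gene and library. Bowtie 0.12.2, HISAT2 2.0 and StringTie 1.3.0 are listed in the submitters' processing notes with no role, and the genome build is not given in the sources used here. Libraries were made from poly(A) RNA, per the labels' protocols. The 27272 rows that reached 1 FPKM in 3 or more of the 12 libraries were fitted as log2(FPKM + 1) by limma 3.58.1 (R 4.3.3), with 1 mean for each group, all libraries together and a trended prior. Two-sided p-values were adjusted (Benjamini-Hochberg) over those rows, for each of 6 comparisons and for the F test over the 4 groups. Depth is unknown, so no counting interval is given.

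The members, lists and tests were chosen with earlier results of these data known. Of the members, the text names those with the largest fold changes among groups that do not overlap and whose higher group averages 5 FPKM or more (up to 5 in each direction for S3_S against S3_C, up to 3 elsewhere) and the 4 most abundant of the ARF genes, of the Aux/IAA genes and of the PIN carriers and other members as 1 class, which gave 24 genes. Others are said to be named after their values were seen, or stand in an account of a whole family or of pathway genes. Pathway and marker genes were matched by Arabidopsis identifier, and SAUR genes by description. None of the 68 members matched the RefSeq table, so no sequences are shown.

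Libraries of S3_S and S3_C with the same replicate number deviated together from their group means (r = 0.268, 0.195 and 0.158), which meets the criterion for pairing (over 0.1 in each), and other pairs of groups did not meet it. Pairing was assumed from these correlations only for the replicate block and the counts within replicate numbers, and it does not come from the labels. The main limma fit, which gave the p-values and standard errors in the Results, was not paired. Values of this size cannot show that libraries share a leaf. Between S3_S and S1, which are different stages, r was 0.33 and 0.379 for numbers 1 and 3 and -0.254 for number 2. Alternatives were a pseudocount of 0.1, no filter, median-of-ratios scaling, a replicate block, only the 2 groups compared, and each library left out. Leaving out 2 libraries together and the block within 2 groups were added after the data were seen. In a simulation that changed 50 genes of each size, 2, 23, 43 and 47 were recovered in S3_S against S3_C at log2 changes of 1, 2, 3 and 4, with 1 false call, and 5, 32, 42 and 43 in S2 against S1, with 7 false calls. Its noise was normal and independent between genes and between libraries. In the real data, whole libraries such as S1 replicate 1 departed from their group over many genes. Recovery and false calls in the real data may therefore differ from these counts.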

Additional observations from a re-analysis of the deposited data

How the results depend on the processing

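The number of members called was 0 in S3_S against S3_C, S3_C against S2 and S3_S against S2 under every alternative run. When single libraries were left out, the number ranged from 0 to 8 in S2 against S1, from 0 to 12 in S3_C against S1 and from 0 to 1 (IAA11) in the test over all 4 groups, the highest values without S1 replicate 1 (15.6%, 23.1% and 8.64% of all tested rows called). Without both S1 replicate 1 and S3_S replicate 3, it was 8 in S2 against S1 (19% of all tested rows were called), 10 in S3_C against S1 (25.1%), 7 in S3_S against S1 (11.3%) and 2 (Bo8g069820 and Bo6g026460) in the test over all 4 groups (13.7%), and the cause was not tested. Of 46 fold changes followed for named genes, 39 kept their sign under the alternatives run and 7 did not, all in S3_S against S3_C and none past the threshold. Not every gene named in the text was followed. AAR3 was not, and its fold change in S3_S against S3_C turned from 0.17 to -0.038 with median-of-ratios scaling. Median-of-ratios scaling gave -0.081 for Bo8g097320, -0.13 for Bo3g108130 and -0.014 for VIK. With single libraries left out, the fold change ran from -0.27 to 0.62 for Bo1g151890, from -0.42 to 0.24 for Bo6g026460, from -0.17 to 0.65 for Bo5g093110, from -0.23 to 0.14 for IAA11, from -0.097 to 0.25 for Bo3g108130 and from -0.030 to 0.47 for VIK. Bo6g026460 was also at 0.24 without both S1 replicate 1 and S3_S replicate 3. The replicate block changed no call, with 0 members called and 16 (23.5%) at an unadjusted p under 0.05 in S3_S against S3_C, against 9.53% of all tested rows, and 23 (33.8%, against 15.2%) with the block in those groups alone. For the same comparison, a pseudocount of 0.1 gave 16 (23.5%, against 10.7%) and no filter gave 12 (17.6%, against 8.26%). The unknown depth limits the low members most.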
